A study of Homo sapiens with 4 samples.

Results

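The translation factors examined here are the messages for the proteins that start, extend and end protein synthesis on the cytosolic ribosome. The set was defined by a list of gene symbols and holds 50 of the 58735 genes in the deposited expression table. It contains 6 scanning and start codon factors, 3 subunits of eIF2, 5 subunits of eIF2B, 13 subunits of eIF3, 11 eIF4 factors and eIF4E-binding proteins, 7 elongation genes, 3 genes for poly(A)-binding proteins and TPT1, and 2 release factors. Of these, 49 had a mean of at least 0.5 FPKM (fragments scaled by gene length and by the reads of the library) over the 4 libraries and were tested. EEF1G, a subunit of the elongation factor 1 complex, was listed at 0 in each library and could not be tested.

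RNA was sequenced from cells labelled NB4, a human cell line derived from acute promyelocytic leukemia. There were 2 libraries of cells labelled as the GNE987 control and 2 libraries of cells treated with GNE987. GNE987 is a bifunctional molecule that ties its target proteins to a ubiquitin ligase, after which they are degraded. The dose was 25 nM and the exposure 24 h. The labels do not say whether the 2 libraries of a group came from separate cultures, so the P values measure only the spread between these libraries. Both groups were the same line, and the study's comparison asks which genes change after GNE987.

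The values of the cell type markers did not match the label. Of 7 promyelocyte markers, 1 reached 1 FPKM in each control library, ELANE and CTSG were at 0 in both, and MPO was at 0.0246 and 0 FPKM. The markers summed to 3.33 and 3.85 FPKM in controls and to 27.5 and 26.3 FPKM after GNE987. The 9 erythroid markers summed to 432 and 408 FPKM in controls and to 782 and 668 FPKM after GNE987, while among them GATA1 was at 124 and 122 FPKM in controls and at 15.1 and 12.5 FPKM after GNE987. These markers moved together with the translation factors, and their part in the results below was not tested. In bulk RNA, fewer cells of a type and less RNA per cell cannot be told apart.

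A scanning 43S complex is assembled on the small ribosomal subunit with eIF1, eIF1A, eIF3, eIF5 and the eIF2 complex that carries the initiator tRNA. eIF2B recharges eIF2 with GTP. The eIF4F complex, made of the cap-binding eIF4E, the scaffold eIF4G and the helicase eIF4A, brings in the mRNA, and 4E-binding proteins compete with eIF4G for eIF4E. Elongation then runs on eEF1A, its exchange factor eEF1B and the translocase eEF2. Many messages of the translation apparatus begin with a C followed by an unbroken stretch of C and T, the 5′ terminal oligopyrimidine (TOP) motif, through which mTOR and the protein LARP1 control their translation and stability.

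A fixed list of 11 members with classical TOP messages was used: EEF1A1, EEF1B2, EEF1D, EEF1G, EEF2, EIF3E, EIF3F, EIF3H, EIF4B, PABPC1 and TPT1. The other 39 members served for comparison. The sequences around the annotated start show the motif and members that lack it. Each line below gives 30 bases from RefSeq on GRCh38.p14, 10 before an annotated start of the gene and 20 from it on, on the gene's strand. Capitals mark an unbroken run of C and T that begins with C at the start itself and is at least 5 bases long, and a line without capitals has no such run. The first 6 lines are members of the TOP list, the next pair are other members with a run, and the last 3 are the members without a run whose messages changed most among the initiation factors.
EEF1A1, chr6:73521013-73521042, minus strand: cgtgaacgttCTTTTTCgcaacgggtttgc
EEF2, chr19:3985444-3985473, minus strand: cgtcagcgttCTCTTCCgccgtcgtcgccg
EEF1B2, chr2:206159885-206159914, plus strand: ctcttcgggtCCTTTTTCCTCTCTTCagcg
TPT1, chr13:45341164-45341193, minus strand: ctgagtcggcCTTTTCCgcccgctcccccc
EIF3F, chr11:7987327-7987356, plus strand: cttccgcctcCTTCTTTCTCgacaagatgg
EIF4B, chr12:53006446-53006475, plus strand: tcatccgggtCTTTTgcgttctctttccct
EIF3K, chr19:38619178-38619207, plus strand: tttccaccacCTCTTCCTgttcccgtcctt
EIF3M, chr11:32583821-32583850, plus strand: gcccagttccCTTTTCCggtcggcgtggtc
EIF4EBP2, chr10:70404135-70404164, plus strand: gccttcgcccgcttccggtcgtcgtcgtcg
EIF2B5, chr3:184135348-184135377, plus strand: cagcttccttgcggaagtggtgaccgtgag
EIF4E, chr4:98929114-98929143, minus strand: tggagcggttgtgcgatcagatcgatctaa

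The run measured 7 bases in EEF1A1, EEF2, TPT1 and EIF3M, 16 in EEF1B2, 10 in EIF3F, 8 in EIF3K and 5 in EIF4B. Of all 35116 annotated starts searched on the strand of the gene, 1429 (4.07%) held such a run. A gene can have more than 1 annotated start and was counted if any of them held a run. By this count, 681 of the 8968 tested protein-coding genes with an annotated start held a run. Of the 50 members, 40 had an entry, and 11 of these held a run at the start: EIF2S3, EIF3D, EIF3F, EIF3K, EIF3M, EIF4A2, EIF4B, EEF1A1, EEF1B2, EEF2 and TPT1. EEF1G, on the TOP list, held none. No entry was found for EIF2S2, EIF3A, EIF3E, EIF3G, EIF3H, EIF3L, EIF4EBP1, EEF1D, PABPC1 or PABPC4. Each line above shows a single annotated start, with a run where the gene had such a start. Where transcription began in these cells was not measured.

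Under the scaling of the deposited values, expression of most elongation genes rose after GNE987 and that of most initiation factors did not. A gene was called when its expression more than doubled or fell below a ratio of 0.5 with P under 0.05 before adjustment. By this rule, 14 of the 49 tested members (28.6%) were higher and 4 (8.16%) were lower, against 33.6% higher and 24.9% lower among all 16668 genes tested. The same shares were 24% and 31.7% over the 10996 tested genes that code for proteins. The share of members called higher was thus near the background, and the share called lower was smaller than the background. The median log2 fold change was 0.12 over the members, 0.17 over all genes tested and -0.29 over the protein-coding genes. All 18 called members also had a Benjamini-Hochberg adjusted P value under 0.05 over all genes tested, the highest being 0.0114 for EIF3C.

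Within the set, the TOP members and the others lay apart. Of the 10 TOP members tested, 7 were higher (70%, against 33.6% of all genes tested) and 0 were lower (against 24.9%). Their median log2 fold change was 1.45, with a range from -0.35 for EIF4B to 3.16 for EEF1D. The unadjusted P value was under 0.05 for each of the other 3 TOP members (EIF3E, EIF3F and EIF4B), whose fold changes stayed under 2. Of the 39 other members, 7 were higher (17.9%) and 4 were lower (10.3%). These shares lay below the 33.6% and 24.9% of all genes tested and the 24% and 31.7% of coding genes. The higher ones were EIF1, EIF5, EIF3C, EIF3K, EIF3L, EIF4EBP2 and EIF5A, and the lower ones EIF2B3, EIF2B5, EIF4E and EIF4G3. The median of the other members was -0.13. The medians differed by 1.59. As both lists were chosen by name, this difference is a description without a test. The 32 other members with a control mean of at least 10 FPKM had a median of 0.017, while the 3548 protein-coding genes above that level had a median of -0.43.

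**Figure D1:**
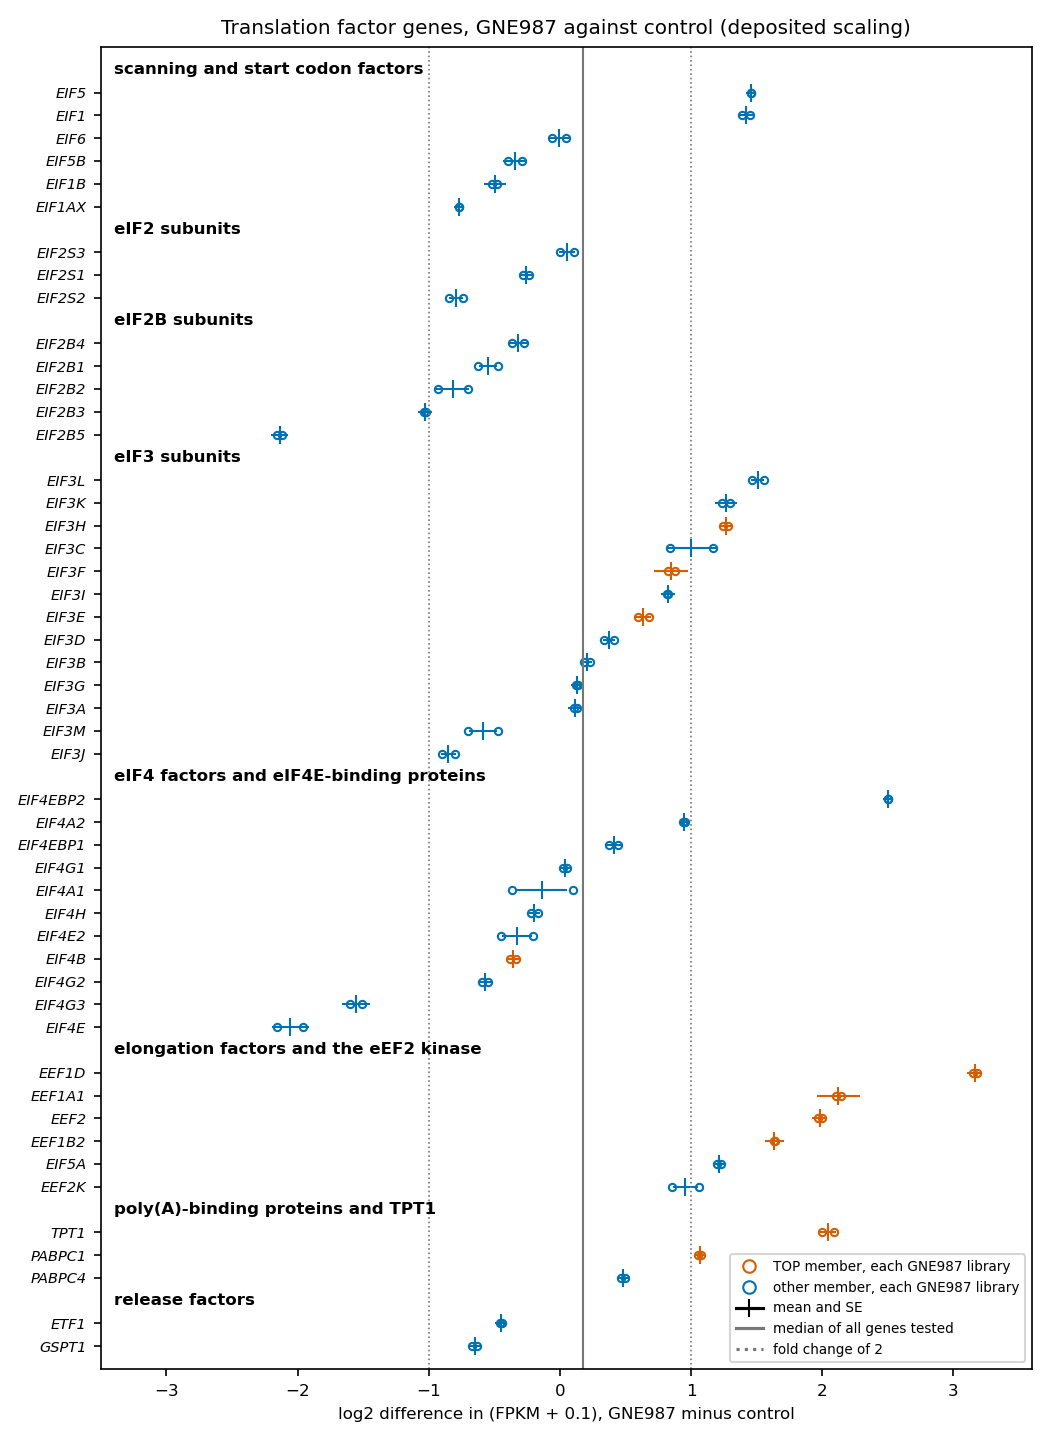
Log2 fold change of each tested translation factor gene, GNE987 against control, on the horizontal axis, grouped by role on the vertical axis. Open circles are the GNE987 libraries, each against the control mean, ticks with bars are the mean and SE, the solid line is the median of all genes tested (0.17) and dotted lines mark a fold change of 2, and 9 of the 10 TOP members (orange) lie to the right of the solid line, EIF4B at -0.35 to its left, while EIF4EBP2 at 2.50 is the farthest right of the others (blue).

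How the libraries are scaled decides the sign of many of these values. The deposited FPKM values divide by 23024012 and 22120718 reads in controls and by 8360488 and 8826052 in GNE987 libraries, while the reads on genes were estimated at 19347286 and 19142227 in controls and at 12238111 and 12740693 after GNE987. Reads on genes per scaling read were therefore 0.840 and 0.865 in controls and 1.46 and 1.44 after GNE987. GAPDH, a glycolytic enzyme often used as a reference, was at 398 and 432 FPKM in controls and at 1501 and 1499 FPKM after GNE987. Scaling to GAPDH moved the median of all genes by -1.77, quantile normalization by -0.42 and scaling to the reads on genes by -0.73.

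Of the 49 tested members, 3 (EEF1D, TPT1 and EIF4EBP2) were above 0 under the deposited scaling and these 3 alternatives, 22 were below 0 under all 4, and 24 changed direction. EEF1D was called higher under all 4, and EIF2B3, EIF2B5, EIF4E and EIF4G3 were called lower under all 4. Relative to the median of all genes, the TOP members lay at 1.28 under the deposited scaling, 1.19 with GAPDH scaling, 0.31 with quantile normalization and 1.24 with scaling to reads on genes. The other members lay at -0.31, -0.32, -0.38 and -0.32 in the same order. The TOP members were above the median of all genes and the others below it under each of the 4 scalings. The TOP median itself was -0.40 with GAPDH scaling. Scaling to GAPDH or to reads on genes multiplies each library by a factor. This leaves positions relative to the median of all genes nearly fixed by construction. Only quantile normalization could move them, here and for the role groups below, and with it the TOP members lay at 0.31 in place of 1.28.

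**Figure D2:**
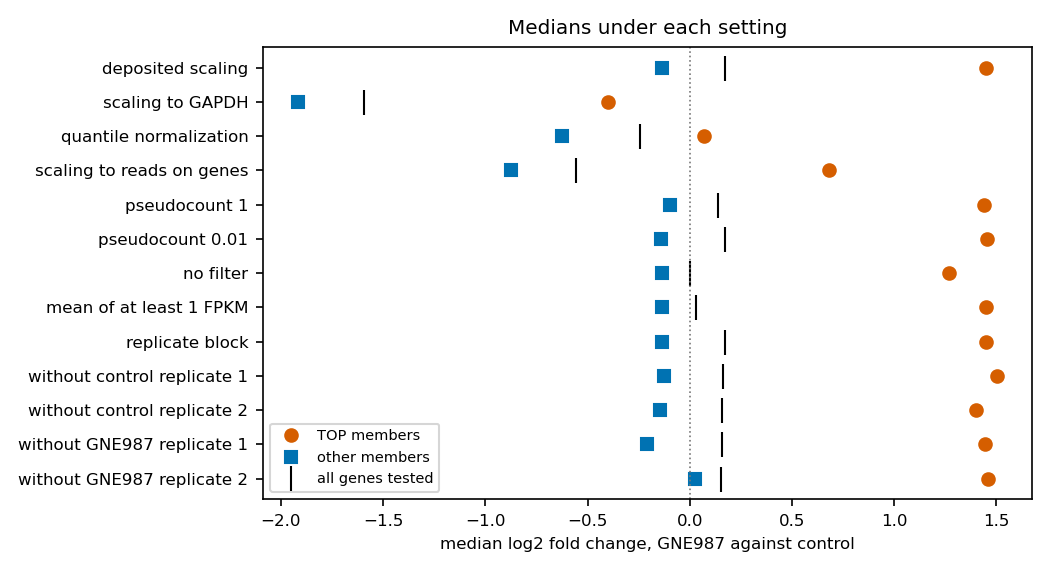
Median log2 fold change, GNE987 against control, of the 10 tested TOP members, the 39 other members and all genes tested under each setting; without the filter, EEF1G also enters the TOP list. The orange points lie to the right of the black ticks and the blue squares to their left in all settings, while the whole row moves with the scaling, down to -0.40 and -1.92 with GAPDH scaling.

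The elongation genes had the highest median of the 8 role groups, 1.81, with 5 of 6 tested called higher (83.3%, against 33.6% of all genes tested). Relative to the median of all genes it was 1.63 under the deposited scaling, 1.55 with GAPDH, 0.31 with quantile normalization and 1.60 with reads on genes, and the group median itself was -0.05 with GAPDH scaling. EEF1A1 (ENSG00000156508, chr6:73489308-73525587 on GRCh38) encodes the factor that brings aminoacyl-tRNA to the ribosome. Its expression was 1145 and 1552 FPKM in controls and 5882 and 5729 FPKM after GNE987. These were the highest values in the set, and the controls lay further from each other than the treated libraries. The log2 fold change of EEF1A1 was 2.12 (SE 0.165, adjusted P = 0.000925), but 0.27 with GAPDH scaling and -0.049 with quantile normalization, and its unadjusted P value was 0.0569 without GNE987 replicate 1 and 0.0556 without GNE987 replicate 2.

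EEF1A1 has 49 annotated pseudogenes, which summed to 80.6 and 139 FPKM in controls and to 510 and 609 FPKM after GNE987. Reads of such copies cannot be told apart from those of the gene with certainty, and the highest of them, EEF1A1P5, was at 69.9 and 122 FPKM in controls and at 436 and 538 FPKM after GNE987. Gene and pseudogenes thus moved in the same direction.

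EEF2 (ENSG00000167658, chr19:3976056-3985463), the translocase, was at 759 and 816 FPKM in controls and at 3078 and 3137 FPKM after GNE987. This gave a log2 fold change of 1.98 (SE 0.0553, adjusted P = 0.000161), with 0.13 under GAPDH scaling and -0.035 under quantile normalization. Quantile normalization sets values by rank, so a gene of unchanged rank shows no change by construction. This applies to EEF1A1 as well, and the ranks of these genes were not compared. The ratio of EEF1A1 to EEF2, which no scaling of whole libraries by a factor can change, was 1.51 and 1.90 in controls and 1.91 and 1.83 after GNE987. Their ratio in the treated libraries overlapped that of the controls. EEF1A1 and EEF2 made up 40.1% and 45.7% of the summed FPKM of all members in controls and 65.0% and 65.2% after GNE987.

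EEF1D, an exchange factor subunit for eEF1A, had the largest increase of all members. It rose from 20.1 and 21.8 FPKM to 186 and 191 FPKM, a log2 fold change of 3.16 (SE 0.0572, adjusted P = 0.000105). No library of one group came near the other. Of the exon bases of EEF1D, 31.2% overlap ENSG00000279605 on the opposite strand, which was at 0.228 and 0.183 FPKM in controls and at 5.61 and 5.13 FPKM after GNE987. Strandedness of the counts is not given in the sources used here.

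EEF1B2, the partner exchange factor subunit, was at 148 and 132 FPKM in controls and at 433 and 434 FPKM after GNE987, with a log2 fold change of 1.64 (SE 0.0692, adjusted P = 0.000269) that became -0.22 with GAPDH scaling. The structural subunit EEF1G was listed at 0, and 99.7% of its exon bases are shared with the read-through gene ENSG00000255508 on the same strand. That gene was at 0.451 and 0.435 FPKM in controls and at 0.898 and 1.05 FPKM after GNE987. EIF5A, the hypusine-bearing factor that resolves stalled peptide bonds, carries no run at its start, and was among the 3 highest of the members outside the TOP list by the mean over the 4 libraries. It was at 195 and 202 FPKM in controls and at 465 and 454 FPKM after GNE987. For EIF5A the log2 fold change was 1.21 (SE 0.0412, adjusted P = 0.000199), with -0.64 under GAPDH scaling and -0.48 under quantile normalization.

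EEF2K, the kinase that inhibits eEF2, was at 5.48 and 5.39 FPKM in controls and at 11.4 and 9.89 FPKM after GNE987. With a log2 fold change of 0.96 it had the smallest value of the group and missed the fold threshold, although both treated libraries were above both controls. The ratio of EEF2 to EEF2K was 138.7 and 151 in controls and 269 and 317 after GNE987.

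**Figure D3:**
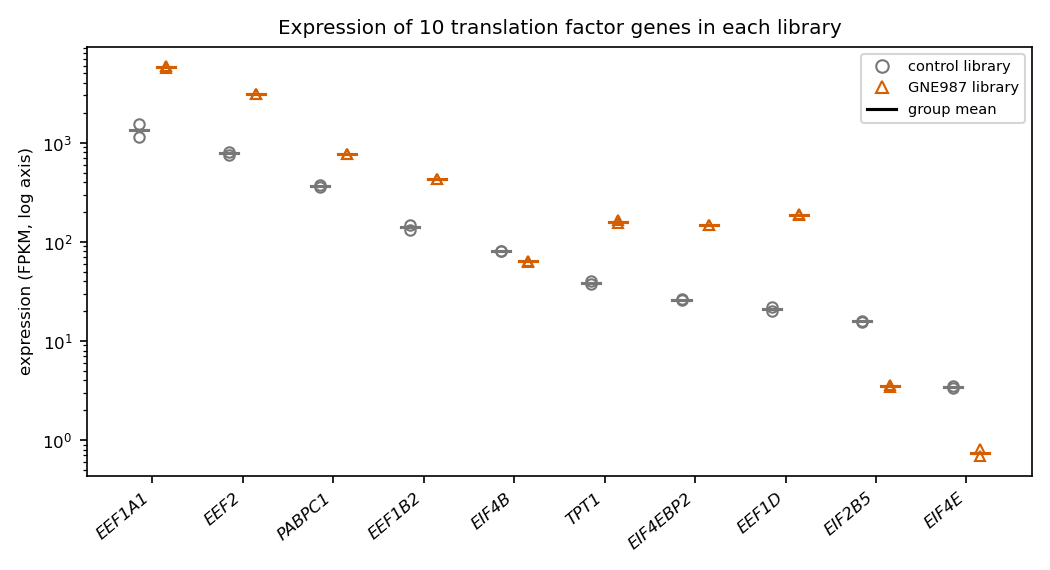
Expression in FPKM (log axis) of 10 translation factor genes in each library, grey circles for control and orange triangles for GNE987 libraries, with a line at each group mean. The libraries of a group lie close together for each gene, EEF1A1 is the highest at 1145 to 5882 FPKM, EEF1D shows the widest gap, and EIF4B, EIF2B5 and EIF4E are the genes drawn whose treated values lie below the controls.

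Both further TOP messages outside initiation and elongation proper rose under the deposited scaling. TPT1, a highly conserved growth-related protein whose message is a classical TOP mRNA, was at 39.8 and 37.5 FPKM in controls and at 165 and 155 FPKM after GNE987. Its log2 fold change was 2.05 (SE 0.0579, adjusted P = 0.000164) and stayed above 0 under all 4 scalings, with 0.19 under GAPDH scaling. PABPC1, the main cytosolic poly(A)-binding protein, went from 375 and 359 FPKM to 775 and 763 FPKM, a log2 fold change of 1.07 (SE 0.0433, adjusted P = 0.000251) that became -0.79 with GAPDH scaling and -0.83 with quantile normalization. PABPC4, a related protein outside the TOP list, was at 44.4 and 42.8 FPKM in controls and at 60.4 and 61.5 FPKM after GNE987, a log2 fold change of 0.48 that missed the threshold. The treated libraries were above the controls for all 3 genes, by least in PABPC4.

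The eIF3 complex, the scaffold on which the scanning ribosome is put together, did not move as a unit. Of its 13 subunits, 4 were higher (30.8%, near the 33.6% of all genes tested) and 0 were lower (against 24.9%). The median log2 fold change was 0.64. Relative to the median of all genes it was 0.46 under the deposited scaling, 0.38 with GAPDH, -0.03 with quantile normalization and 0.43 with reads on genes. EIF3L had the largest value, at 26.7 and 26.9 FPKM in controls and at 79.0 and 74.2 FPKM after GNE987. For EIF3L the log2 fold change was 1.51 (SE 0.0501, adjusted P = 0.000195), and 51.8% of its exon bases are shared with other genes. EIF3K was at 88.7 and 77.4 FPKM in controls and at 204 and 196 FPKM after GNE987, a log2 fold change of 1.27 (SE 0.082, adjusted P = 0.000603).

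EIF3H, on the TOP list, was at 49.7 and 48.3 FPKM in controls and at 119 and 116 FPKM after GNE987, also with a log2 fold change of 1.27 (SE 0.041, adjusted P = 0.000188). EIF3L, EIF3K and EIF3H were each below 0 with GAPDH scaling, at -0.34, -0.59 and -0.59. EIF3C was low, at 2.18 and 2.84 FPKM in controls and at 5.70 and 4.54 FPKM after GNE987. Its log2 fold change of 1.00 (SE 0.193) lay just at the threshold, and its call was lost without control replicate 1 (0.82) and without GNE987 replicate 1 (0.84, unadjusted P = 0.0964) or 2 (1.16, unadjusted P = 0.0574), and under each of the 3 other scalings. EIF3CL, a near-identical copy of EIF3C, was at 1.05 and 1.16 FPKM in controls and at 5.73 and 3.85 FPKM after GNE987, and reads of the pair cannot be assigned with certainty.

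The other TOP subunits of eIF3 did not pass the fold threshold. EIF3E was at 52.3 and 56.7 FPKM in controls and at 87.2 and 82.2 FPKM after GNE987, a log2 fold change of 0.64. EIF3F was at 11.8 and 9.35 FPKM in controls and at 19.3 and 18.6 FPKM after GNE987, a log2 fold change of 0.85, and it reached 1.01 without control replicate 1. In both genes the treated libraries lay above the controls.

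Next came EIF3I, one of the 3 highest members outside the TOP list by the mean over the 4 libraries, at 121 and 131 FPKM in controls and at 223 and 223 FPKM after GNE987, a log2 fold change of 0.82. EIF3D was at 0.38, EIF3B at 0.21, EIF3G at 0.13 and EIF3A at 0.12 on the log2 scale, all short of the fold threshold. The lowest values were those of EIF3M, at -0.59, and EIF3J, the loosely bound subunit, at 37.6 and 36.6 FPKM in controls and at 21.2 and 19.9 FPKM after GNE987, a log2 fold change of -0.85. The ratio of EIF3L to EIF3M was 1.08 and 1.20 in controls and 4.65 and 5.14 after GNE987, so subunits of the complex moved apart from each other within the libraries. With 2 libraries against 2, the smallest exact permutation P value for such a ratio is 0.333, and no ratio was tested.

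The eIF4 factors, which load the mRNA, held genes called in both directions. Of 11 genes, 1 was higher (9.09%) and 2 were lower (18.2%), against 33.6% and 24.9% of all genes tested. The median log2 fold change was -0.19, and the group median lay below that of all genes under each of the 4 scalings. EIF4EBP2, a 4E-binding protein (ENSG00000148730, chr10:70404145-70428618), was at 26.4 and 26.0 FPKM in controls and at 148 and 149 FPKM after GNE987. Its log2 fold change was 2.50 (SE 0.0374, adjusted P = 9.61e-05), the second of all members after EEF1D, and 0.65 with GAPDH scaling. EIF4EBP2 shares no exon base with another annotated gene.

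EIF4E, the cap-binding protein (ENSG00000151247, chr4:98879276-98929133), fell from 3.49 and 3.34 FPKM to 0.689 and 0.805 FPKM. Its log2 fold change was -2.05 (SE 0.141, adjusted P = 0.000686) and lay between -2.05 and -3.74 over the 4 scalings. The processed pseudogene EIF4EP2 was listed above EIF4E itself, at 11.9 and 13.7 FPKM in controls and at 4.21 and 2.60 FPKM after GNE987, and reads of the pair cannot be assigned with certainty. The pseudogene had a log2 fold change of -1.91 (SE 0.262). Gene and pseudogene thus fell together.

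Ratios within a library do not change when the whole library is scaled by a factor, though quantile normalization does change them. EIF4EBP2 to EIF4E was 7.56 and 7.78 in controls and 215 and 185 after GNE987. The other 4E-binding protein of the set, EIF4EBP1, was at 125 and 114 FPKM in controls and at 163 and 155 FPKM after GNE987, a log2 fold change of 0.41 that was not called. EIF4EBP1 and EIF4EBP2 together over EIF4E gave 43.5 and 42.0 in controls and 452 and 378 after GNE987. Both ratios to EIF4E rest on its low values of 0.689 and 0.805 FPKM after GNE987. Reads of EIF4E and EIF4EP2 cannot be assigned with certainty, so the size of these ratios is uncertain. EIF4EBP2 over EIF4EBP1 went from 0.210 and 0.228 to 0.911 and 0.959, so the messages of the pair stood at similar levels in the treated libraries.

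EIF4G3, a scaffold paralog, fell from 4.04 and 4.33 FPKM to 1.41 and 1.31 FPKM, a log2 fold change of -1.55 (SE 0.109, adjusted P = 0.000727). The main scaffold EIF4G1 was at 107 and 109 FPKM in controls and at 110 and 112 FPKM after GNE987, and its log2 fold change was 0.04. EIF4B, the stimulator of the helicase and a TOP message with the shortest run shown above, was at 81.0 and 81.7 FPKM in controls and at 64.6 and 62.6 FPKM after GNE987. With a log2 fold change of -0.35 (adjusted P = 0.00235) it was the only tested TOP member below 0 under all 4 scalings.

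The helicases EIF4A2 and EIF4A1 were at 0.95 and -0.13 on the log2 scale. EIF4A2, which holds a run at its start, was at 58.6 and 57.7 FPKM in controls and at 113 and 112 FPKM after GNE987. EIF4A1 was listed at 2.83 and 2.79 FPKM in controls and at 3.02 and 2.15 FPKM after GNE987, and its groups overlapped. Its processed pseudogene EIF4A1P10 was listed above it, at 4.50 and 5.50 FPKM in controls and at 9.25 and 9.22 FPKM after GNE987. The log2 fold change of EIF4A1P10 was 0.88, and reads of the pair cannot be assigned with certainty. Of the exon bases of EIF4A1, 47.4% are shared with other genes on the same strand, among them the read-through gene SENP3-EIF4A1. The remaining genes of the group, EIF4E2 (-0.33), EIF4G2 (-0.57) and EIF4H (-0.19), were not called.

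Both lower members outside eIF4 belonged to eIF2B, the exchange factor of eIF2. All 5 subunits had log2 fold changes below 0 under all 4 scalings, and 2 were lower (40%, against 24.9% of all genes tested). The median was -0.82, which is -0.99 relative to all genes and between -0.77 and -1.01 under the other scalings. EIF2B5, the catalytic subunit (ENSG00000145191, chr3:184135038-184146127), fell from 15.6 and 16.0 FPKM to 3.46 and 3.56 FPKM, the largest decrease of all members. The decrease of EIF2B5 gave a log2 fold change of -2.14 (SE 0.062, adjusted P = 0.000169). The libraries of each group lay within a small distance of each other.

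EIF2B3 fell from 24.4 and 25.7 FPKM to 12.3 and 12.2 FPKM, a log2 fold change of -1.03 (SE 0.0538, adjusted P = 0.000392) near the threshold, with -0.99 and no call without control replicate 2. EIF2B2 was at -0.82 and EIF2B1 at -0.55 on the log2 scale. EIF2B4 changed least, at 12.1 and 11 FPKM in controls and at 8.91 and 9.52 FPKM after GNE987, with a log2 fold change of -0.32. The ratio of EIF2B5 to EIF2B1 was 0.376 and 0.388 in controls and 0.130 and 0.120 after GNE987.

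None of the 3 subunits of eIF2 itself was called under the deposited scaling. EIF2S3, the subunit that binds GTP and the initiator tRNA, was at 97.9 and 104 FPKM in controls and at 109 and 101 FPKM after GNE987, and the groups overlapped. EIF2S1, the subunit whose phosphorylation blocks initiation, had a log2 fold change of -0.26. EIF2S2 was at 64.5 and 63.1 FPKM in controls and at 38.2 and 35.5 FPKM after GNE987, a log2 fold change of -0.79 that was not called. EIF2S3 over EIF2S2 was 1.52 and 1.65 in controls and 2.85 and 2.84 after GNE987, while EIF2B5 over EIF2S1 was 0.684 and 0.688 in controls and 0.183 and 0.182 after GNE987. The message of the exchange factor's catalytic subunit thus fell relative to its substrate in each treated library.

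Among the scanning and start codon factors, 2 of 6 were higher (33.3%), near the 33.6% of all genes tested. EIF1, which guards start codon selection, was at 135 and 125 FPKM in controls and at 355 and 340 FPKM after GNE987, a log2 fold change of 1.42 (SE 0.0562, adjusted P = 0.000243). EIF5, the GTPase-activating protein of eIF2, was at 26.5 and 26.3 FPKM in controls and at 72.7 and 72.7 FPKM after GNE987, a log2 fold change of 1.46 (SE 0.0381, adjusted P = 0.00015). Both became negative with GAPDH scaling, at -0.43 and -0.39, and neither holds a run at its start.

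The other 4 start codon factors were not called. EIF1AX, the partner of eIF1 in scanning, was at 42.2 and 42.3 FPKM in controls and at 24.8 and 24.8 FPKM after GNE987, a log2 fold change of -0.77. Its processed pseudogene EIF1AXP1 was at 54.2 and 52.5 FPKM in controls and at 25 and 34.6 FPKM after GNE987. EIF1B was at -0.50, EIF5B, the subunit joining factor, at -0.34 and EIF6, the anti-association factor, at -0.01 on the log2 scale, the groups of EIF6 overlapping.

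Both release factors lay below the median of all genes under each of the 4 scalings, without a call under the deposited one. ETF1, which reads the stop codons, was at 69.5 and 73.2 FPKM in controls and at 52.6 and 52.0 FPKM after GNE987, a log2 fold change of -0.45. GSPT1, its GTPase partner, was at 24.9 and 25 FPKM in controls and at 16.1 and 15.6 FPKM after GNE987, a log2 fold change of -0.65.

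The TOP members summed to 56.4% and 60.1% of the FPKM of all members in controls and to 78.4% and 78.6% after GNE987. In the deposited values the set's composition thus shifted towards TOP messages within each treated library, and EEF1A1 and EEF2 carried most of the sum. Scaling a library by a factor leaves these shares as they are, while quantile normalization changes them. With quantile normalization the log2 fold changes of EEF1A1 and EEF2 were -0.049 and -0.035. Across the 49 tested members, the log2 fold change had a Spearman correlation of 0.37 with the control mean, while over all genes tested it was -0.55. The points share 4 libraries and the control values enter both measures, so these are descriptions.

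A split by sequence in place of the list gave a smaller difference. The 11 members with a run at the start had a median log2 fold change of 0.95, with 5 higher (EIF3K, EEF1A1, EEF1B2, EEF2 and TPT1) and 0 lower. The 28 tested members with an entry and no run had a median of -0.32, with 5 higher and 4 lower. Of all 8968 tested protein-coding genes with an annotated start, 22.9% were higher and 32.4% were lower. The rule that lets a run begin within 10 bases of the start was met by 33.5% of all entries. Counted per gene, 3721 of 8968 tested protein-coding genes met it. With this rule the medians were 0.61 and -0.45. EIF2S3 and EIF3M hold a run of 7 bases, as EEF1A1 and EEF2 do, and had log2 fold changes of 0.06 and -0.59.

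The run as such did not mark higher genes elsewhere in the table. Of 623 tested protein-coding genes with a run at the start that were neither members nor ribosomal protein genes, 21.4% (133) were higher and the median log2 fold change was -0.30. Of the 8287 tested protein-coding genes with no run, members and ribosomal protein genes included, 22.5% were higher and the median was -0.35. Among ribosomal protein genes, the largest class of TOP messages, 46 of 47 with a run were higher, with a median of 2.04. The median of the TOP members, 1.45, lay between that of these ribosomal protein genes and that of the other genes with a run.

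**Figure D4:**
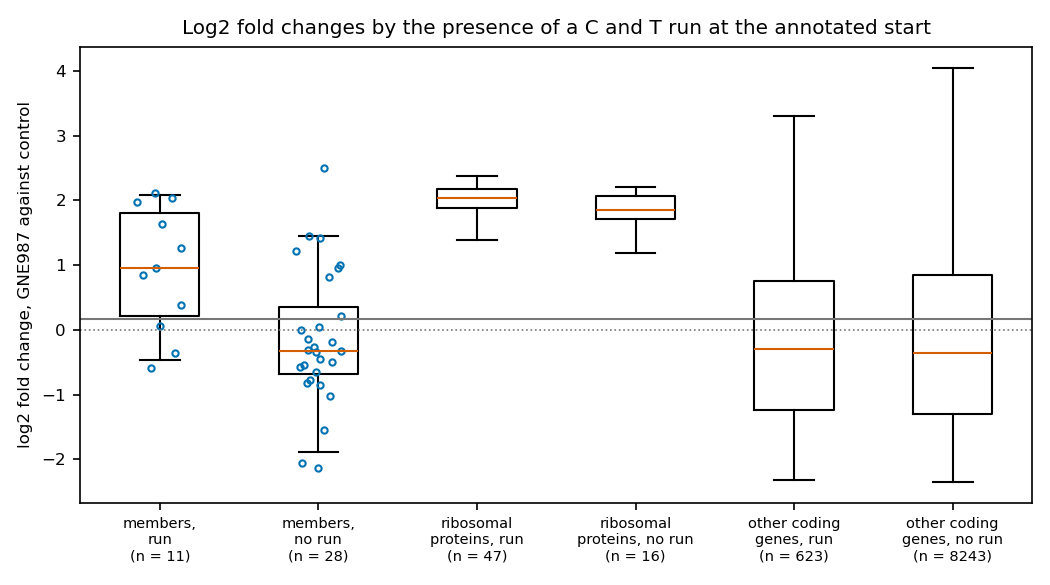
Log2 fold change, GNE987 against control, of genes with and without a C and T run at any annotated start. Boxes span the middle 50% of genes with the median in orange, whiskers the 5th to 95th percentiles, and blue points are single members. Members with a run (median 0.95) lie above those without (-0.32), ribosomal protein genes lie near 2 with and without a run, and the other coding genes (-0.30 with a run) lie near each other.

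Genes that work beside these factors were taken from a list of 61 other translation genes, of which 57 were tested, 10 were higher (17.5%) and 21 were lower (36.8%), with a median log2 fold change of -0.47. The background shares were 33.6% higher and 24.9% lower over all genes tested, and 24% and 31.7% over those that code for proteins, so the share lower was near that of coding genes. The number lower was 46 with GAPDH scaling, under which 9738 of all 16668 genes tested were lower. Under the deposited scaling, genes for ribosome recycling, rescue and release held 0 higher and 6 lower of 9, with a median of -1.56. The enzymes that make hypusine on eIF5A and diphthamide on eEF2 held 0 higher and 5 lower of 8 tested, with a median of -1.12. The messages of EIF5A and EEF2 and those of the enzymes that modify their proteins thus lay on opposite sides of 0 under the deposited scaling.

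SECISBP2, needed to read UGA as selenocysteine, rose from 3.67 and 3.66 FPKM to 64.4 and 65.2 FPKM, the largest log2 fold change of the list at 4.11. EIF4A3, the eIF4A paralog of the exon junction complex, rose from 31.3 and 29.5 FPKM to 123 and 122 FPKM, a log2 fold change of 2.01. PAIP1, which binds PABPC1 and aids translation, fell from 21.1 and 21.1 FPKM to 4.87 and 4.18 FPKM, a log2 fold change of -2.20. PAIP2, which binds PABPC1 and hinders it, was called higher under the deposited scaling, with 14.1 and 15.2 FPKM in controls and 44.3 and 37.7 FPKM after GNE987, and is named here after its values were seen. The ratio of PAIP2 to PAIP1 was 0.667 and 0.719 in controls and 9.10 and 9.04 after GNE987. EEF1E1, a small protein related to the elongation factor subunits, fell from 17.0 and 13.5 FPKM to 3.24 and 3.28 FPKM, a log2 fold change of -2.18.

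Regulators of these factors moved in both directions. LARP1, which binds the cap and the TOP sequence, fell from 61.6 and 68.5 FPKM to 15.6 and 15.2 FPKM, a log2 fold change of -2.07 (SE 0.0701, adjusted P = 0.000199), and stayed below 0 under all 4 scalings. MTOR was at 10.9 and 12.2 FPKM in controls and at 9.73 and 9.22 FPKM after GNE987, a log2 fold change of -0.28 that was not called. LARP1 thus fell while 7 of 10 tested TOP members were called higher under the deposited scaling, and the part of LARP1 in the TOP values was not tested. Of 12 genes of TOR signalling to translation, 3 were higher (TSC2, RPS6KB2 and MKNK2) and 2 were lower (LARP1 and RPTOR). Those other than LARP1 were named after their values were seen. These shares of 25% and 16.7% stand beside 33.6% and 24.9% over all genes tested and 24% and 31.7% over coding genes.

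PPP1R15A, a regulatory subunit of the phosphatase that acts on eIF2, rose from 14.0 and 12.7 FPKM to 54.4 and 49.3 FPKM, a log2 fold change of 1.95 (SE 0.0842, adjusted P = 0.000279), with 0.10 under GAPDH scaling. EIF2AK4, a kinase of eIF2 that senses uncharged tRNA, fell from 2.02 and 2.45 FPKM to 0.830 and 0.881 FPKM, a log2 fold change of -1.29 (SE 0.164, adjusted P = 0.00338). Of the 7 tested eIF2 kinases and partners, 1 was higher (14.3%) and 3 were lower (42.9%). The shares were 33.6% and 24.9% over all genes tested, and 24% and 31.7% over those that code for proteins. Phosphorylation of eIF2 and the rate of protein synthesis were not measured in these libraries.

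**Figure D5:**
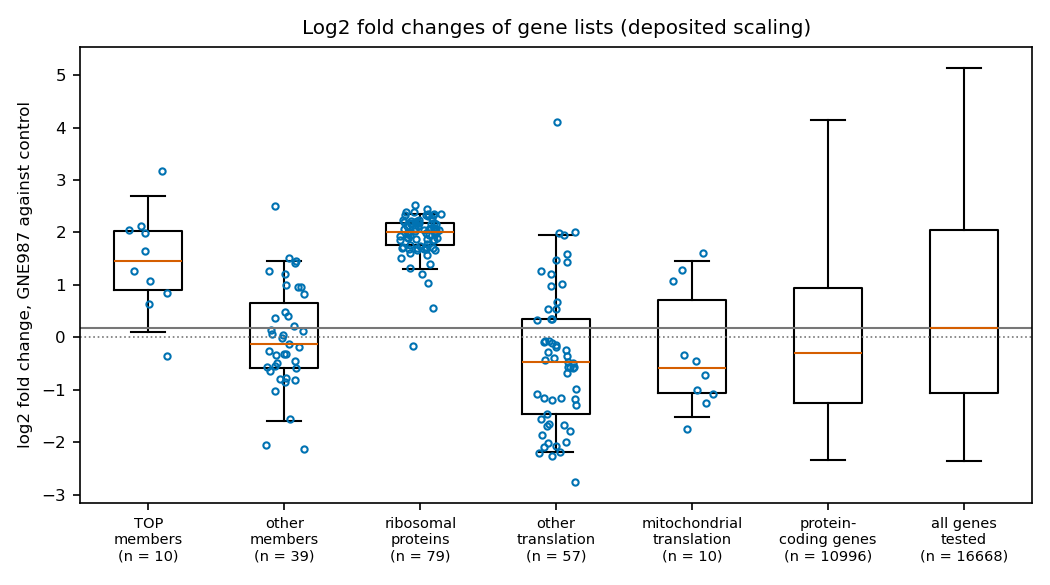
Log2 fold change, GNE987 against control, of 7 lists of genes; boxes span the middle 50% with the median in orange, whiskers the 5th to 95th percentiles, blue points are single genes of the short lists and the grey line is the median of all genes tested (0.17). TOP members (median 1.45) lie between ribosomal protein genes (2.01) and the other members (-0.13), and the other translation genes (-0.47) and mitochondrial translation factors (-0.59) lie lower.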

How the data were processed

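RNA was extracted with Trizol, made into libraries with the Illumina TruSeq RNA kit and sequenced in 2 control and 2 GNE987 libraries. After read filtering the authors aligned to the genome with HISAT (HISAT2 2.0.5 and hg38 in the submitters' processing notes) and deposited 1 FPKM value per gene and library. The counting program, annotation and strand setting are not given in the sources used here. All 4 value columns were used (0 left out). Of 58735 identifiers, 58207 (99.1%) are in GENCODE release 44, which gave names and positions.

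The deposited table gives FPKM, so log2(FPKM + 0.1) was fitted on the whole table with limma 3.58.1 in R 4.3.3 (empirical Bayes with an intensity trend, two-sided), for the 16668 genes whose mean reached 0.5 FPKM. A fold change on this scale understates that of low genes. P values were adjusted by Benjamini-Hochberg over the whole table tested. Genes were called at the study's thresholds (P under 0.05 before adjustment, fold over 2 or below 0.5).

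Reads per library were estimated from FPKM steps and exon lengths, which gave whole reads (within 0.01) for 46.6% to 48.6% of genes above 0. The values of 1 read were 1.04, 2.75 and 2.61 times that of control replicate 1 in control replicate 2 and GNE987 replicates 1 and 2, so the treated libraries are the less precise. No count test was run. The chi-square per gene between replicates, 1 for counting noise alone, had a mean of 13.3 and a median of 1.70 in controls and a mean of 2.53 and a median of 0.895 after GNE987.

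The members and lists were chosen with earlier results of these data known. Values per library are given for every TOP member, for the largest and smallest log2 fold change of each role group, for the 3 members outside the TOP list with the highest mean, for the 3 largest called increases and decreases of 2 wider lists whose mean reached 5 FPKM, and for PPP1R15A, LARP1, MTOR, EIF2AK4 and GAPDH. Further members are named to account for all. The fit was tested on simulated data. Sequences come from RefSeq promoter entries on GRCh38.p14, 250 bases before to 50 after the start. The alternatives were 3 scalings, 2 pseudocounts, 2 filters, adjusted P values, the replicate number as a block, leaving out each library and TOP definitions by sequence, the stricter of which and the difference between the medians were added after the data were seen.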

Additional observations from a re-analysis of the deposited data

How the results depend on the processing

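The scaling moved the counts most. Of the 49 tested members, 1 was higher and 32 were lower with GAPDH scaling, 4 and 12 with quantile normalization, and 5 and 19 with scaling to reads on genes. Of all 16668 genes tested, 3031 were higher and 9738 lower with GAPDH scaling. These numbers were 4235 and 5464 with quantile normalization and 4190 and 6626 with scaling to reads on genes. The other translation genes gave 1 and 46 with GAPDH and 4 and 34 with reads on genes. The TOP median was -0.40, 0.068 and 0.68 in the order GAPDH, quantile and reads on genes, that of the other members -1.92, -0.63 and -0.88, and their difference 1.51, 0.70 and 1.56. Without the filter the TOP median was 1.27 and the difference 1.40, as EEF1G enters at 0. With the run at the start as the TOP definition the medians were 0.95 and -0.32 (difference 1.27), and within 10 bases 0.61 and -0.45 (1.06). Leaving out 1 library gave TOP medians of 1.40 to 1.5, other medians of -0.21 to 0.03 (above 0, at 0.026, without GNE987 replicate 2) and differences of 1.43 to 1.65.

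Directions that reversed with GAPDH scaling were those of EIF1 (-0.43), EIF5 (-0.39), EIF2S3 (-1.80), EIF3A (-1.73), EIF3B (-1.65), EIF3C (-0.80), EIF3D (-1.47), EIF3E (-1.22), EIF3F (-0.99), EIF3G (-1.72), EIF3H (-0.59), EIF3I (-1.03), EIF3K (-0.59), EIF3L (-0.34), EIF4A2 (-0.90), EIF4G1 (-1.81), EIF4EBP1 (-1.44), EIF5A (-0.64), EEF1B2 (-0.22), EEF2K (-0.87), PABPC1 (-0.79), PABPC4 (-1.37), MTRF1L (-0.23) and TUFM (-0.58). With quantile normalization they were those of EIF2S3 (-0.88), EIF3A (-0.58), EIF3B (-0.92), EIF3D (-0.27), EIF3E (-0.087), EIF3G (-0.59), EIF3I (-0.38), EIF4G1 (-0.92), EIF4EBP1 (-0.69), EIF5A (-0.48), EEF1A1 (-0.049), EEF2 (-0.035), PABPC1 (-0.83), PABPC4 (-0.14), TUFM (-0.021) and GAPDH (-0.11). With scaling to reads on genes they were those of EIF2S3 (-0.71), EIF3A (-0.65), EIF3B (-0.56), EIF3D (-0.39), EIF3E (-0.13), EIF3G (-0.64), EIF4G1 (-0.73), EIF4EBP1 (-0.36) and PABPC4 (-0.29). The scalings change every gene of a library together by construction, quantile normalization by rank. Leaving out 1 library turned EIF6 (-0.080 to 0.069), EIF2S3 (-0.00012 to 0.11) and EIF4A1 (-0.37 to 0.099), none of them called. A pseudocount of 1 ended the calls of EIF2B3 (-0.98), EIF3C (0.80), MTIF3 (-0.92) and EIF2AK4 (-0.80).

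With the replicate number as a block, 14 members were higher and 4 lower, and it changed no call of the 62 named genes. The numbers share no source in the labels, and same-numbered libraries deviated with a correlation of 0.0054 across genes, so the block pairs by number only. The same 14 and 4 were counted at an adjusted P value under 0.05. The FPKM values in the treated libraries rest on fewer reads, which limits low genes such as EIF4E, EIF3C and EIF2B2 most.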

Other observations

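The factors that do the same work inside mitochondria were described with a list of 10 genes, all tested. Of these, 3 were higher (MTRF1L, TUFM and MTRFR), 4 were lower (MTIF3, TSFM, MRRF and MTRF1), and the median log2 fold change was -0.59. These shares of 30% and 40% stand beside 33.6% and 24.9% over all genes tested and 24% and 31.7% over those that code for proteins. TUFM, the mitochondrial counterpart of eEF1A, rose from 131 and 121 FPKM to 304 and 304 FPKM, a log2 fold change of 1.28 (SE 0.054, adjusted P = 0.00027) that was -0.58 with GAPDH scaling and -0.021 with quantile normalization. TSFM, its exchange factor, fell from 10.7 and 11.1 FPKM to 4.21 and 4.91 FPKM, a log2 fold change of -1.24. The ratio of TUFM to TSFM was 12.2 and 10.8 in controls and 72.3 and 61.9 after GNE987, while EEF1A1 and its exchange factor subunit EEF1B2 had a ratio of 7.75 and 11.8 in controls and of 13.6 and 13.2 after GNE987.

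MTRF1L, a mitochondrial release factor, rose from 4.30 and 4.69 FPKM to 13.0 and 14.7 FPKM, a log2 fold change of 1.60 that was -0.23 with GAPDH scaling. MTIF3, a mitochondrial initiation factor, fell from 7.26 and 6.99 FPKM to 3.13 and 3.46 FPKM, a log2 fold change of -1.09. MTRFR, MRRF and MTRF1 were named after their values were seen.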
